A study of Mus musculus with 15 samples.

Results

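DNA methylation is written by the DNA methyltransferases, removed through the TET dioxygenases and read by proteins that bind methylated CpG. The 9 genes described here encode members of each kind: Dnmt1 and Uhrf1, which copy methylation onto newly made DNA, Dnmt3a and Dnmt3b, which methylate new sites, Tet1, Tet2 and Tet3, which oxidise 5-methylcytosine, and Mbd1 and Mbd2, which bind methylated CpG and recruit repressor complexes. They were chosen by name and are 9 of the 35976 genes in the deposited count table. In neurons, which no longer divide, Dnmt3a also methylates cytosines outside CpG, and 5-hydroxymethylcytosine, the first product of the TET enzymes, is abundant in brain DNA. Dnmt1 and Uhrf1 are best known from dividing cells, where both act at the replication fork.

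RNA was sequenced from nuclei of the ventral tegmental area, the midbrain region from which dopamine neurons project to the striatum and cortex. All mice were male heterozygous DAT-Cre animals (B6.SJL-Slc6a3tm1.1(cre)Bkmm/J), 8 to 12 weeks old, and all carried AAV5-DIO-KASH-HA in this region, which puts an HA-tagged protein on the nuclear envelope of cells with Cre, that is, of cells in which the dopamine transporter gene drives it. Each sample held tissue of 2 pooled mice. Sorting on HA gave dopaminergic (HA-positive, DA) and non-dopaminergic (HA-negative, nDA) nuclei. The groups compared, 4 in all, were DA nuclei after food training (FT, n = 4), after the last session of cocaine self-administration (maintenance, MN, n = 3) and after 21 days of abstinence in the home cage (craving in the labels, CRV, n = 4), and nDA nuclei after food training (n = 4). Mice of all groups, the cocaine groups included, were first trained for food over 7 days. MN and CRV mice had then taken cocaine at 0.3 mg/kg per infusion over 5 days, then 1.0 mg/kg per infusion over 10 days. They also had a jugular catheter and were sampled later than FT mice, so that cocaine, surgery and time since training cannot be told apart. Mice differed between stages.

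Libraries held 25813697 to 59046618 counts. The 8 dopamine neuron markers were all higher in DA nuclei, with a summed level of 4902 to 9066 CPM (read counts scaled to a common library total with TMM factors) in the FT libraries against 280.1 to 421.9 CPM in nDA libraries. The nDA nuclei are labelled as neurons, but 9 oligodendrocyte markers summed to 9042 to 22640 CPM there, against 1789 to 2840 CPM in FT DA libraries. Glial RNA was therefore part of the nDA libraries and, at a lower level, of the DA libraries, where a change in the share of a cell type and a change of RNA level within cells cannot be told apart. The MN libraries and nDA replicate 2 stood apart in how counts depended on the GC content of transcripts. The slope of log2 CPM on percent GC was -0.0378 to -0.0225 in the 3 MN libraries and -0.0248 in nDA replicate 2, against -0.0167 to 0.0204 in the 8 FT and CRV DA libraries and 0.0209 to 0.0322 in the other 3 nDA libraries.

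Dnmt3a had the highest mean level per length of the members in all 4 groups. At MN it did not differ from Tet2 beyond their spread, at 8.07 ± 3.08 against 7.53 ± 2.58 CPM per kilobase (SD, n = 3), and in MN replicate 1 Tet2 was higher. Among genes with a count it stood at percentile 80.8 per length in FT DA, 67.9 in MN, 82.0 in CRV and 92.6 in nDA nuclei. In FT DA nuclei its level was 13.7 ± 1.72 CPM per kilobase of annotated exon (SD, n = 4). Mbd1 followed at 7.12 ± 2.07, Tet2 at 5.03 ± 0.817, Tet3 at 3.35 ± 1.47 and Tet1 at 2.90 ± 1.83 CPM per kilobase. Mbd2 at 2.08 ± 1.15, Dnmt1 at 1.79 ± 1.04 and Dnmt3b at 0.775 ± 0.912 CPM per kilobase were lower still, and Uhrf1 had no count. Dnmt3a differed from Mbd1 by more than the sum of their SDs, and each later pair of neighbours in this order differed by less than that sum. In nDA nuclei Dnmt3a stood at 23.4 ± 3.59, Mbd1 at 9.66 ± 1.005 and Tet2 at 8.59 ± 0.323 CPM per kilobase, followed by Tet3 at 6.27 ± 2.24, Dnmt1 at 4.94 ± 1.69 and Tet1 at 4.50 ± 0.438 CPM per kilobase. The lengths are merged exons of all annotated isoforms, so that a gene read mainly from a short isoform is placed too low in this order.

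Dnmt3a made up most of the length-scaled methyltransferase RNA. Its share of the summed level of the 3 Dnmt genes was 84.3% ± 10.5 (SD, n = 4) in FT DA, 91.7% ± 6.70 (n = 3) in MN, 82% ± 8.39 (n = 4) in CRV and 81% ± 3.89 (n = 4) in nDA nuclei. Among the 3 Tet genes, Tet2 held the largest mean share in every group, at 47.1% ± 16.1, 60.2% ± 4.74, 50% ± 5.86 and 44.8% ± 4.61 in the same order. The shares of Dnmt3a and Tet2 in FT DA libraries overlapped with those in each other group.

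**Figure D1:**
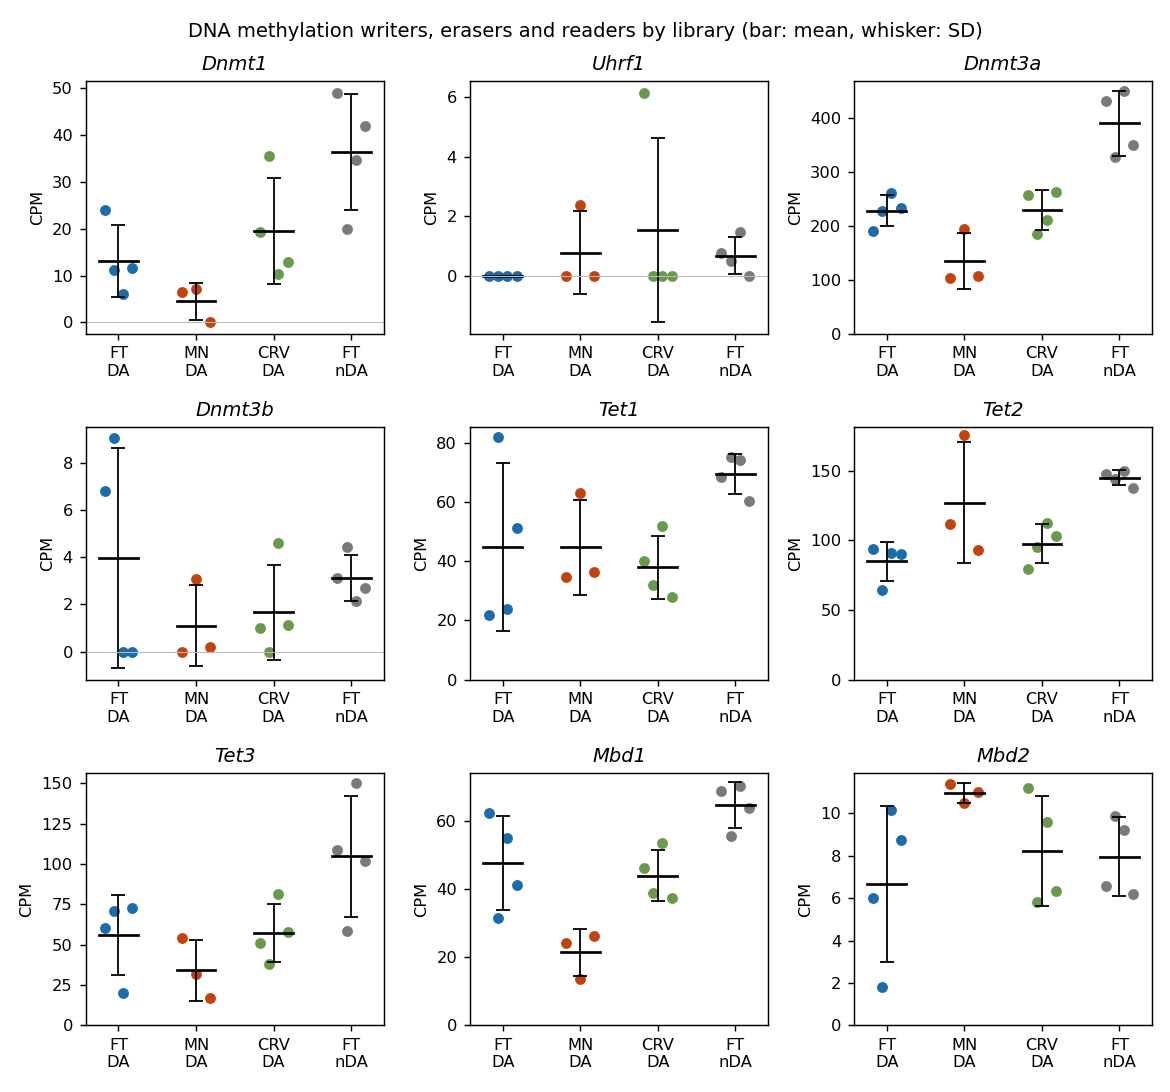
Level of each of the 9 genes in CPM (y axis, from 0, or below it where a whisker passes 0) by library. Points are libraries, grouped as food-trained (FT DA, n = 4), maintenance (MN DA, n = 3) and abstinence (CRV DA, n = 4) dopaminergic nuclei and food-trained non-dopaminergic nuclei (FT nDA, n = 4), bars are means and whiskers SDs. Dnmt3a and Tet2 lie lower in all FT DA libraries than in any nDA library, Mbd1 lies lower in the 3 MN libraries than in any other library, and Uhrf1 and Dnmt3b have libraries at 0.

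The first comparison asked how the members differ between DA and nDA nuclei of food-trained mice. Dnmt3a and Tet2 were lower in DA nuclei, both with a log2 fold change of -0.80, and the other 6 tested members did not pass edgeR's test. DESeq2 also called Dnmt1 (DESeq2 adjusted p = 0.0190). Neither Dnmt3a nor Tet2 passed with the replicate number as a block (edgeR adjusted p = 0.0597 for both), with log2 fold changes of -0.79 for Dnmt3a and -0.81 for Tet2. Whether DA and nDA libraries of 1 number came from the same mice is not given in the sources used here. Of 9 members, 8 had enough counts to be tested, and 7 of these 8 had a negative log2 fold change. The 2 calls are 25% of the members tested, where 12.8% of all 19786 genes tested were called and 9.17% of all genes were called lower in DA nuclei. At an unadjusted p under 0.05 there were 3 members, the third being Dnmt1, and 24.3% of all genes. The median log2 fold change was -0.73 over the 8 members and -0.21 over all genes tested. The median over all genes depended on the setting. It was -0.63 with limma-voom, -0.60 with the replicate block and 0.049 with at least 10 counts in every library. In 2 of the 8, Dnmt3a and Tet2, the groups did not overlap, and in 26% of all genes tested, 19.1% with the DA group lower.

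Dnmt3a, the main methyltransferase of mature neurons, stood at 190.4, 228, 260.1 and 233 CPM in the 4 FT DA libraries and at 431, 327, 449 and 349.7 CPM in the 4 nDA libraries. The highest DA library was below the lowest nDA library. The log2 fold change of Dnmt3a was -0.80 (SE 0.19, edgeR quasi-likelihood test, Benjamini-Hochberg adjusted p = 0.0207), lower in 4 of 4 DA libraries. Without nDA replicate 1 or 3 it was -0.72 and -0.69 and no longer passed (edgeR adjusted p = 0.0838 and 0.0675). It was -0.88 without nDA replicate 2 (edgeR adjusted p = 0.0191) and -0.85 in a fit of all 15 libraries with a term for the 4 of low GC slope, added after the data were seen (edgeR adjusted p = 0.0609).

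Tet2, a dioxygenase that lacks the DNA-binding CXXC domain of Tet1 and Tet3, stood at 93.95, 64.4, 90.99 and 90.2 CPM in FT DA and 148, 144, 150.2 and 138 CPM in nDA libraries. The nDA libraries lay close together, and FT DA replicate 2 was the lowest of all 15 libraries. The log2 fold change of Tet2 was -0.80 (edgeR adjusted p = 0.0148, SE 0.17), again lower in 4 of 4 DA libraries. Without nDA replicate 1 or 3 it was -0.76 and -0.75 and no longer passed (edgeR adjusted p = 0.0593 and 0.0509). The log2 fold change was -0.81 without nDA replicate 2 (edgeR adjusted p = 0.0274) and -0.78 in the fit with the added term (edgeR adjusted p = 0.0720).

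The promoters of these 2 genes are shown because both genes were lower in DA nuclei and their enzymes act on CpG. The windows are the 250 bases before the first listed start site of each gene, from RefSeq on GRCm38.p6, written 5′ to 3′ on the gene's strand with each CG in capitals. The Dnmt3a window lies at chr12:3806730-3806979 on the plus strand and that of Tet2 at chr3:133544391-133544640 on the minus strand. No annotated exon lies in either window (0 in GENCODE M21). Annotated transcripts span both windows, 3 over that of Dnmt3a and 1 over that of Tet2. The gene and strand of these transcripts were not checked.
Dnmt3a: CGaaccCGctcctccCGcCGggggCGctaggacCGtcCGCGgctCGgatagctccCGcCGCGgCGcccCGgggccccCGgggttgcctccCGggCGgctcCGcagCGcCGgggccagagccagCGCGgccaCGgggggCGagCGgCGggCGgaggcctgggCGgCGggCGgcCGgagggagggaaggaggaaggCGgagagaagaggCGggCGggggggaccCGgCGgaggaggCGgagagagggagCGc
Tet2: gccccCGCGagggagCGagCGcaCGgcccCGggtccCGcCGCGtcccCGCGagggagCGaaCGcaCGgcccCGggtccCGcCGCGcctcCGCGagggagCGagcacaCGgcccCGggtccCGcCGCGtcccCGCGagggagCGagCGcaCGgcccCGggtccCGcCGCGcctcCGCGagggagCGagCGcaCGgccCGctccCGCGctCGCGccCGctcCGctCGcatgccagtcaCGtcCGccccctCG
The motif CG (the same on both strands) occurred 38 times in the Dnmt3a window and 51 times in the Tet2 window, where 98.1% and 99.9% of the 32851 promoter windows of this length had fewer. The median window had 6, and 92.1% of windows held at least 1. The GC box GGGCGG, the core bound by Sp factors, occurred 5 times in the Dnmt3a and 1 time in the Tet2 window on either strand, counting overlaps, and 32.7% of all windows held it. The letters CCAAT were found in neither window on either strand and in 33.8% of all windows. RefSeq windows of 7 of the 9 members were used. Those of Tet1, Tet3 and Dnmt3b held 15, 17 and 21 CG. For 3 members the count depended on the start site: the listed windows of Dnmt1 held 2, 7 and 26 CG, those of Uhrf1 10 and 30, and those of Dnmt3a 38, 40 and 15.

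The other writers did not pass edgeR's test between populations. Dnmt1 was at 24.1, 11.1, 5.99 and 11.6 CPM in FT DA and 49.1, 19.97, 34.8 and 41.9 CPM in nDA libraries, a log2 fold change of -1.49 (edgeR adjusted p = 0.0784, SE 0.47). FT DA replicate 1 overlapped nDA replicate 2. Without FT DA replicate 1 Dnmt1 passed, with a log2 fold change of -1.95 (edgeR adjusted p = 0.0191). Dnmt3b, best known from early development, had 6.80, 9.03, 0 and 0 CPM in FT DA and 3.12, 4.43, 2.15 and 2.69 CPM in nDA libraries, so that the DA libraries were either at 0 or above every nDA library. Uhrf1 had 0 counts in all 4 FT DA libraries, which allows up to 0.0523 to 0.110 CPM (3 counts, per library), and 38, 24, 66 and 0 counts in the nDA libraries. Uhrf1 had too few counts to pass the filter in any of the 4 comparisons.

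The remaining erasers and the readers also had lower means in DA nuclei, with none past the threshold. Tet1 stood at 44.8 ± 28.2 CPM (SD, n = 4) against 69.6 ± 6.78 CPM (SD, n = 4), a log2 fold change of -0.66 (SE 0.41). Its nDA libraries spanned 60.4 to 75.0 CPM and its FT DA libraries 21.9 to 82.1 CPM, so the nDA range lay inside the DA range. For Tet1 this fold change was -1.13 without FT DA replicate 2 (edgeR adjusted p = 0.0628) and -0.42 without FT DA replicate 3. Tet3 stood at 56.02 ± 24.5 CPM (SD, n = 4) against 105 ± 37.4 CPM (SD, n = 4) (log2 fold change -0.93, SE 0.42). Mbd1, a reader that binds methylated CpG and also unmethylated CpG through a CXXC domain, stood at 47.7 ± 13.9 CPM (SD, n = 4) against 64.7 ± 6.74 CPM (SD, n = 4) (log2 fold change -0.47, SE 0.25). Mbd2, a subunit of a form of the NuRD deacetylase complex, stood at 6.67 ± 3.69 CPM (SD, n = 4) against 7.96 ± 1.84 CPM (SD, n = 4) (log2 fold change -0.28, SE 0.66).

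Glial markers moved with the population difference. In DA nuclei 7 of 9 oligodendrocyte, 5 of 7 microglia and 2 of 7 astrocyte markers were lower by the test, with none higher by the test. A negative log2 fold change was seen in 9 of 9 oligodendrocyte and 7 of 7 microglia but only 4 of 7 astrocyte markers. Summed microglia markers were 525.2 to 948.6 CPM in FT DA against 1580 to 3091 CPM in nDA libraries, and summed astrocyte markers 1692 to 2099 against 1939 to 4009 CPM. Summed vascular markers were 8.66 to 170.5 against 203.3 to 419.6 CPM and summed oligodendrocyte precursor markers 296.9 to 394.8 against 403.7 to 512.0 CPM, both without overlap, with 0 of 5 markers past the test in either list. The log2 fold change was negative in 4 of 5 vascular and 3 of 5 precursor markers. Of 7 markers of cycling cells 5 were tested and 1 was lower, with sums of 2.20 to 27.8 against 13.1 to 23.2 CPM, and Top2a and Mcm3 at 0 in all FT DA libraries. The part of these cells in the levels of Dnmt3a and Tet2 was not tested.

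**Figure D2:**
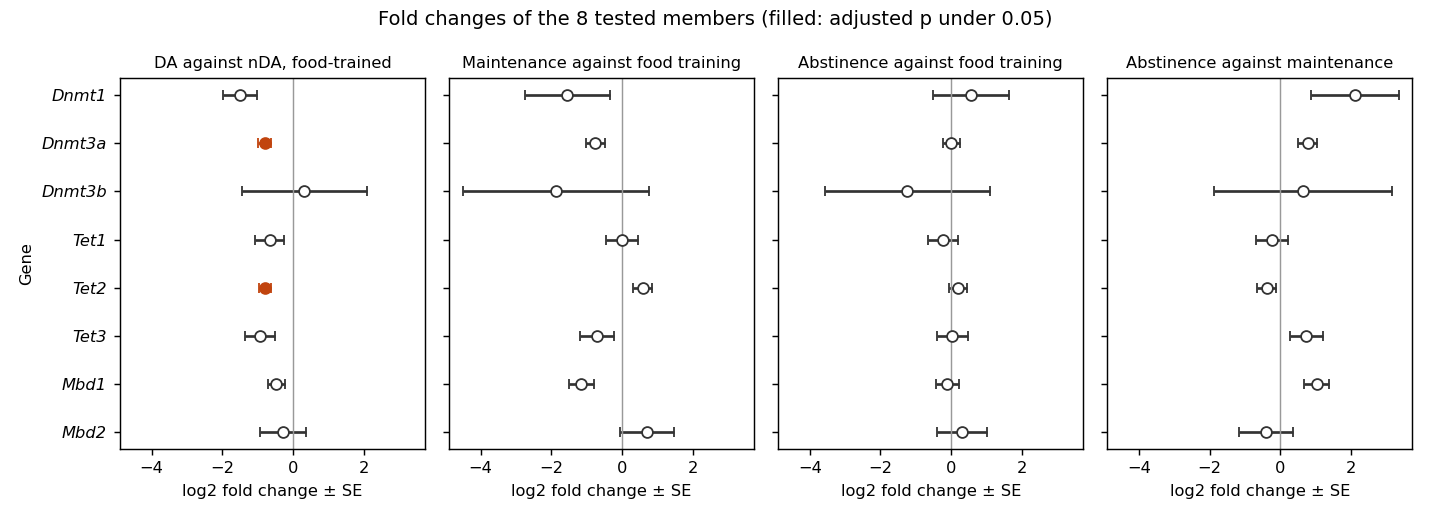
Log2 fold change (x axis, edgeR) with its SE (whiskers) for the 8 members with enough counts (y axis), in the 4 comparisons. Filled points passed an adjusted p of 0.05: only Dnmt3a and Tet2 in DA against nDA nuclei, at -0.80 each, while the points for abstinence against food training lie near 0 for Dnmt3a (0.0084) and Tet3 (0.029).

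The second comparison set MN against FT in DA nuclei. No member passed edgeR's test. With an unadjusted p under 0.05 there were 3 members, Dnmt3a and Mbd1 with negative and Tet2 with a positive log2 fold change. DESeq2 called 1 member, Mbd1, and limma-voom with quality weights called 0. Over all 19060 genes tested edgeR called 0.131% (DESeq2 894 genes, limma-voom 9), and 11.6% had an unadjusted p under 0.05. The median log2 fold change was -0.74 over the 8 members and -0.0072 over all genes. Comparisons of MN with FT and of CRV with MN share the MN libraries, and those of MN and CRV with FT share the FT libraries, so they are not independent of one another.

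Mbd1 had the lowest p-value of the members at MN. It stood at 24.3, 13.7 and 26.4 CPM in the 3 MN libraries, at 62.5, 31.6, 55.3 and 41.4 CPM in FT and at 46.4, 38.8, 53.6 and 37.6 CPM in CRV libraries. All MN libraries lay below every FT and CRV library. The log2 fold change of Mbd1 against FT was -1.15 (edgeR adjusted p = 0.290, SE 0.36, lower in 3 of 3 MN libraries), and with the DESeq2 test it was -1.16 with a DESeq2 adjusted p of 0.0423. The MN and FT ranges did not overlap in 2 of the 8 members, Mbd1 (lower) and Mbd2 (higher), and in 8.5% of all genes, 4.21% with MN lower and 4.29% with MN higher.

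Dnmt3a stood at 103, 193 and 107 CPM in the MN libraries, so that replicates 1 and 3 were below every FT library and replicate 2 lay inside the FT range. Its log2 fold change was -0.76 (edgeR adjusted p = 0.360, SE 0.27). Without MN replicate 2 it was -1.14 (edgeR adjusted p = 0.102). Dnmt1 had 6.48, 7.12 and 0 CPM in the MN libraries, with no count in MN replicate 3, which allows up to 0.073 CPM there (3 counts). The log2 fold change of Dnmt1 was -1.54 with an SE of 1.21 and, without MN replicate 3, -0.96 with an SE of 0.77. Its size depended on the fit, at -5.04 with limma-voom, -2.37 with the replicate block and -0.47 with the added term for the 4 libraries of low GC slope. Dnmt3b, at 0, 3.08 and 0.195 CPM, and Uhrf1, with 0, 79 and 0 counts, were too sparse at MN to set a direction.

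No Tet gene passed the test at MN. Tet2 stood at 112, 176 and 92.99 CPM, with replicates 1 and 2 above every FT library and replicate 3 below the highest of them, a log2 fold change of 0.58 (edgeR adjusted p = 0.421, SE 0.26). Without MN replicate 2 this was 0.25. Tet3 stood at 54.2, 31.6 and 16.7 CPM against 60.2, 70.99, 20.2 and 72.7 CPM in FT (log2 fold change -0.71, SE 0.48), a value that ran from -1.21 without MN replicate 1 to -0.38 without MN replicate 3. Tet1 stood at 34.6, 62.9 and 36.3 against 21.9, 82.1, 23.98 and 51.2 CPM (log2 fold change -0.0071, SE 0.46). Mbd2 stood at 11.4, 10.5 and 11.02 CPM at MN, above the FT libraries at 5.995, 1.79, 10.2 and 8.74 CPM, with a log2 fold change of 0.72 (edgeR adjusted p = 0.860, SE 0.77).

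Of the summed cell type markers at MN, only those of oligodendrocytes did not overlap with FT. Summed oligodendrocyte markers were 1140 to 1746 CPM in MN against 1789 to 2840 CPM in FT libraries, with 1 of 9 lower by the test, and summed astrocyte (1916 to 2167 against 1692 to 2099 CPM), microglia (469.7 to 1014 against 525.2 to 948.6 CPM) and dopamine neuron markers (6250 to 7647 against 4902 to 9066 CPM) overlapped, with none past it. Summed GABA neuron markers were 163.8 to 347.3 against 163.2 to 219.4 CPM, with a median log2 fold change of 0.99. Of these 3 markers 1 had a negative value and 0 passed the test. Summed vascular (11.1 to 59.3 against 8.66 to 170.5 CPM) and oligodendrocyte precursor markers (310.9 to 389.7 against 296.9 to 394.8 CPM) overlapped as well. The part of these cell types in the values of the members at MN was not tested.

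The GC content of the longest transcript was 43.7% for Tet1 and 45.4% for Tet2 and 50.1% to 56.5% for the other 7 members, with Mbd2 highest. With GC content corrected per library, the log2 fold change at MN was -1.20 for Mbd1, -0.72 for Dnmt3a, 0.44 for Tet2 and 1.05 for Mbd2. That of Mbd2 was 0.38 without FT DA replicate 2, 1.29 with GC correction and the replicate block together, and 0.29 with the added term for the 4 libraries of low GC slope. The nDA replicate with the GC slope of the MN libraries, replicate 2, was the lowest nDA library in 4 members, at 19.97 CPM for Dnmt1, 327 CPM for Dnmt3a, 58.5 CPM for Tet3 and 55.6 CPM for Mbd1, and the highest in 3, Dnmt3b, Tet1 and Mbd2. A term for these 4 libraries in a fit of all 15, added after the data were seen, left a log2 fold change of -0.87 (SE 0.52) for Mbd1, -0.44 (SE 0.43) for Dnmt3a and 0.59 (SE 0.43) for Tet2. That term rests on nDA replicate 2 alone, since the other 3 libraries are the whole MN group.

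**Figure D3:**
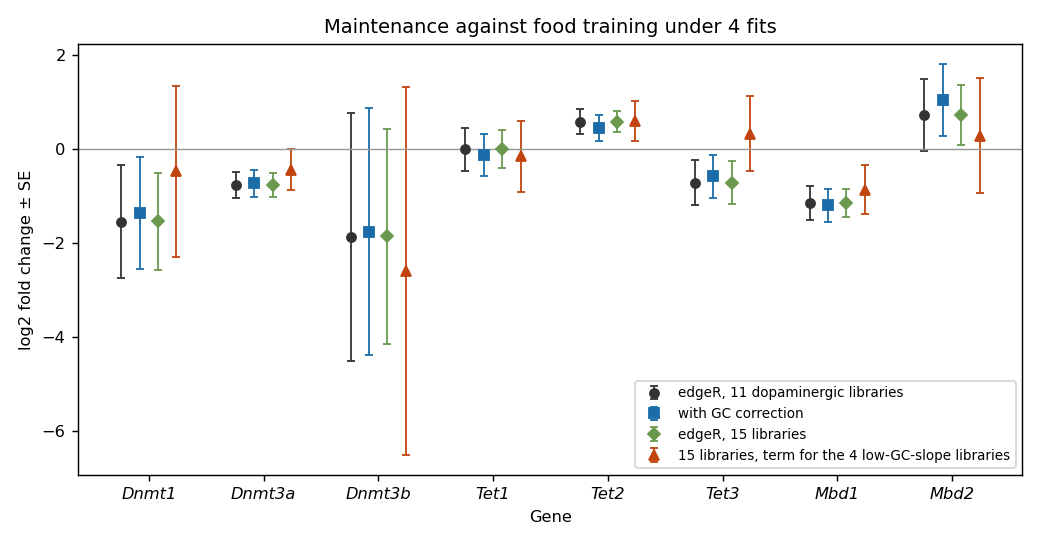
Log2 fold change of maintenance against food training (y axis) with its SE (whiskers) for the 8 tested members (x axis) under 4 fits: edgeR on the 11 DA libraries, the same with GC correction, edgeR on all 15 libraries, and the last with a term for the 3 MN libraries and nDA replicate 2. Mbd1 stays negative in the 4 fits, at -0.87 to -1.20, Tet2 stays positive, and Tet3 changes sign under the added term, from -0.71 to 0.33.

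Ratios of 2 members within a library do not depend on how libraries were scaled. The log2 ratio of Mbd2 to Mbd1 counts was -1.09, -0.39 and -1.26 in the MN libraries, -3.38, -4.13, -2.44 and -2.24 in FT, -2.05, -2.74, -2.48 and -2.57 in CRV and -3.39, -2.49, -2.94 and -3.36 in nDA libraries. The 3 MN libraries were above the other 12. The mean log2 ratio at MN exceeded that in FT by 2.14, a 4.39-fold higher ratio (exact permutation test, two-sided p = 0.0571, the smallest that 3 against 4 libraries can give), and that in CRV was below MN by 1.55 (p = 0.0571, likewise the smallest possible by exact permutation). Adjusted over the 16 ratio tests, 4 pairs in 4 comparisons, both exact permutation p-values became 0.457. In length-scaled terms Mbd2 made up 52.5% ± 7.89 (SD, n = 3) of the pair's summed level at MN and 21.4% ± 9.37 (n = 4) in FT. Among nDA libraries, replicate 2 had the highest ratio.

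The log2 ratio of Tet3 to Tet2 counts was -1.05, -2.47 and -2.47 at MN and -0.64, 0.14, -2.17 and -0.31 in FT, with FT replicate 3 among the MN values. Its mean at MN was 1.25 below that in FT (exact permutation p = 0.114, adjusted 0.457). In nDA libraries replicate 2 had the lowest value, -1.30, against -0.44 to -0.0031 in the other 3. The log2 ratios of Tet1 to Tet2 and of Dnmt3a to Dnmt1 overlapped between the groups in all 4 comparisons.

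**Figure D4:**
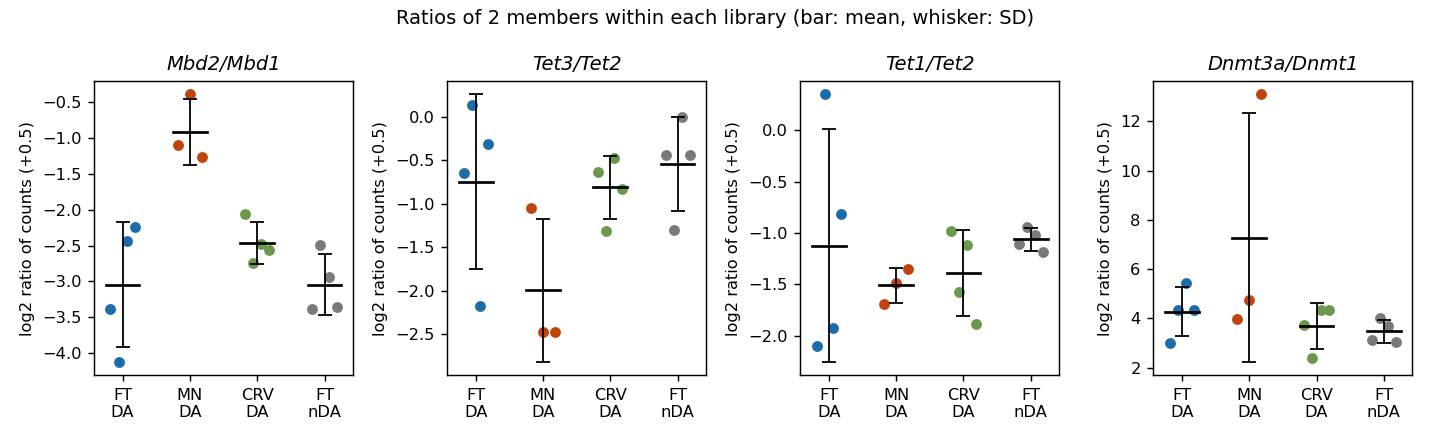
Log2 ratio of the counts of 2 members (y axis, 0.5 added to each count) within each library for 4 pairs. Points are libraries, bars means and whiskers SDs, with groups as FT DA (n = 4), MN DA (n = 3), CRV DA (n = 4) and FT nDA (n = 4). The 3 MN libraries lie between -1.26 and -0.39 for Mbd2/Mbd1, above the 12 others, and the wide MN spread of Dnmt3a/Dnmt1 comes with the library that has 0 counts of Dnmt1.

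The third comparison, of CRV with FT in DA nuclei, asked whether members differ after 21 days of abstinence. No member passed, 0 had an unadjusted p under 0.05, and DESeq2 and limma-voom with quality weights called 0 members as well. Across all genes tested edgeR called 0% (DESeq2 125 genes, limma-voom 0), with 4.3% at an unadjusted p under 0.05. The ranges overlapped in all 8 tested members, and did not in 3.32% of all genes. The median log2 fold change was 0.019 over the members and 0.043 over all genes. No cell type marker passed the test. The log2 fold change was negative in 8 of 8 dopamine neuron, 7 of 9 oligodendrocyte, 6 of 7 astrocyte, 3 of 7 microglia and 0 of 3 GABA neuron markers. Summed oligodendrocyte markers were 1173 to 2030 CPM in CRV against 1789 to 2840 CPM in FT. Summed dopamine neuron markers were 4493 to 6723 against 4902 to 9066 CPM. Their part in the values of the members at CRV was not tested.

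Dnmt3a stood at 258, 185, 211 and 263 CPM in the CRV libraries and its mean was close to that in FT, 229 ± 37.4 CPM (SD, n = 4) against 228 ± 28.7 CPM (SD, n = 4). The log2 fold change of Dnmt3a was 0.0084 with an SE of 0.24. Tet2 stood at 97.4 ± 14.01 CPM (SD, n = 4) (log2 fold change 0.20, SE 0.25) and Tet3 at 57.1 ± 18 CPM (SD, n = 4) (log2 fold change 0.029, SE 0.44). Tet1 stood at 37.97 ± 10.6 CPM (SD, n = 4), a log2 fold change of -0.24 (SE 0.43). Mbd1 stood at 44.1 ± 7.42 CPM (SD, n = 4) (log2 fold change -0.11, SE 0.32) and Mbd2 at 8.23 ± 2.58 CPM (SD, n = 4) (log2 fold change 0.30, SE 0.71).

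Dnmt1 and Uhrf1, which copy methylation, varied more between libraries. Dnmt1 stood at 19.3, 35.5, 10.3 and 12.9 CPM in CRV libraries, with replicate 2 above every FT library, a log2 fold change of 0.56 (SE 1.07). It was 0.10 without CRV replicate 2 and 1.03 without FT DA replicate 1. Uhrf1 had 276 counts in CRV replicate 1 and 0 in the other 3, and Dnmt3b had 0.978, 0, 4.59 and 1.12 CPM. With SEs of 1.07 for Dnmt1 and 2.33 for Dnmt3b, a change of 1 on the log2 scale was not detectable in this comparison. In the same fit Mbd1 at MN against FT did not pass at -1.15 with an SE of 0.36 (edgeR adjusted p = 0.290). A change of that size could thus also be missed for Tet1, Tet3 and Mbd2, whose SEs at CRV were larger.

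In the last comparison, CRV against MN, no member passed edgeR's test, where 0.178% of all 19060 genes did. DESeq2 and limma-voom with quality weights called 0 members, beside 732 and 30 of the 19060 genes. With an unadjusted p under 0.05 there were 9.92% of all genes and 2 members, Mbd1 with a log2 fold change of 1.04 (edgeR adjusted p = 0.396, SE 0.36) and Dnmt3a with one of 0.77 (edgeR adjusted p = 0.404, SE 0.27). All 4 CRV libraries were above all 3 MN libraries for Mbd1 and Dnmt1, where 12.1% of all genes did not overlap and 7.56% did so with CRV higher. Dnmt1 had a log2 fold change of 2.11 (SE 1.24), Tet3 of 0.74 (SE 0.48) and Tet2 of -0.38 (SE 0.27). For Dnmt1 it was 5.33 with limma-voom and 1.04 with the added term for low GC slope, which gave 0.45 for Dnmt3a and -0.30 for Tet3. Without MN replicate 2 that of Tet2 was -0.06, and that of Tet3 ran from 0.41 without MN replicate 3 to 1.24 without MN replicate 1. Of 9 oligodendrocyte markers 1 was higher in CRV by the test, with sums of 1173 to 2030 CPM against 1140 to 1746 CPM in MN. Summed astrocyte markers were 1235 to 1762 CPM in CRV against 1916 to 2167 CPM in MN, without overlap, with a negative log2 fold change in 5 of 7 and none past the test. The part of these cells in the members' values was not tested. The MN libraries, with the GC slopes given above, are the same in this comparison.

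A further 33 genes of the pathway were described beside the members: other readers, partners of the enzymes, base excision enzymes and suppliers of the methyl donor. Of these, 30 were tested, and by edgeR none passed in any of the 4 comparisons. Between DA and nDA nuclei 11 had a positive and 19 a negative log2 fold change, with a median of -0.35 and 5 of 30 at an unadjusted p under 0.05, beside 24.3% of all genes. DESeq2 called 2 and limma-voom 2 of the 30 there, beside 3883 and 4266 of the 19786 genes tested. The 2 with the lowest p-values were Ogt, which encodes the O-GlcNAc transferase that binds TET proteins, at 453 ± 74.2 against 649.9 ± 37.3 CPM (log2 fold change -0.55, edgeR adjusted p = 0.0844), and Neil1, which encodes a DNA glycosylase, at 11.96 ± 4.57 against 25.9 ± 4.60 CPM (-1.14, edgeR adjusted p = 0.0860).

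Across the stages the median log2 fold change of these genes was 0.081 at MN against FT, 0.25 at CRV against FT and 0.049 at CRV against MN, beside -0.0072, 0.043 and 0.053 over all genes. By list, a positive value at CRV against FT was seen in 9 of 10 excision and repair genes (median 0.51), 3 of 8 other readers (-0.034), 3 of 5 partners (0.011) and 5 of 7 genes of methyl donor and 2-oxoglutarate supply (0.26), with none past the test. At MN against FT the excision and repair genes had 4 of 10 positive, with a median of -0.46. Of the 30 genes, 1, 0 and 5 had an unadjusted p under 0.05 at MN against FT, CRV against FT and CRV against MN, beside 11.6%, 4.3% and 9.92% of all genes. In the same order DESeq2 called 0, 0 and 1, beside 894, 125 and 732 of all 19060 genes. For limma-voom it was 0, 0 and 0, beside 9, 0 and 30 of all genes. Of the 30 pathway genes, those with the lowest p-values at MN against FT were Gadd45a, a stress-induced gene linked to demethylation by repair, at 7.95 ± 5.79 against 20.4 ± 3.08 CPM, and Apex1, an abasic site endonuclease, at 24.2 ± 20.3 against 8.84 ± 6.89 CPM. At CRV against FT they were Mat2a, which makes S-adenosylmethionine, at 513 ± 127 against 729.8 ± 67.02 CPM, and Mbd4, a glycosylase with a methyl-CpG-binding domain, at 11.5 ± 6.88 against 4.34 ± 4.37 CPM. At CRV against MN they were Tdg, the glycosylase that removes the oxidised bases made by TET enzymes, at 20.7 ± 1.60 against 6.77 ± 2.67 CPM (log2 fold change 1.61, edgeR adjusted p = 0.398), and Zbtb4, a zinc finger reader, at 67.5 ± 10.4 against 158 ± 79.5 CPM.

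Genes with the most similar pattern were sought for the 6 members with at least 10 counts in every library, among named genes and by the root mean square difference of mean-centred log2 CPM over the 15 libraries (10106 genes). For Dnmt3a these were Cttnbp2 (0.235) and Cdc37l1 (0.241), where Dnmt3a itself varied by 0.594 around its mean. For Tet2, which varied by 0.386, they were Cdadc1 (0.222) and Gnas (0.231). Mbd1 (0.638) was nearest to Emc8 (0.279) and Stox2 (0.347), and Mbd2 (0.652) to Homer2 (0.221) and Gpn1 (0.319). Tet1 (0.609) was nearest to Rnf214 (0.296) and Lncpint (0.357), and Tet3 (0.834) to Dstyk (0.384) and Sema4d (0.396). Members themselves were left out of the search.

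The members lie on different chromosomes, apart from the pair of Mbd genes. On GRCm38, from the GENCODE annotation, Dnmt1 spans chr9:20907209-20959888 on the minus strand, Uhrf1 chr17:56303321-56323486 on the plus strand, Dnmt3a chr12:3806007-3914443 (plus) and Dnmt3b chr2:153649450-153687730 (plus). Tet1 spans chr10:62804570-62908996, Tet2 chr3:133463679-133545139 and Tet3 chr6:83362373-83459084, all on the minus strand. Exons of Dnmt3a share 133 bases with the antisense gene Dnmt3aos, whose mean over the 15 libraries was 0.511 CPM. Exons of Tet2 share 43 bases with Gm42567 on the opposite strand, which was not analysed here. Whether counting used strand is not given in the sources used here, so reads in those bases cannot be assigned to one gene.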

How the data were processed

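The authors deposited whole-number counts per gene for 15 libraries made with a low-input cDNA kit from sorted nuclei, without molecular identifiers, so that intervals and floors cover counting error only. Per the submitters' processing notes, Trim Galore 0.6.7, cutadapt 1.18, STAR 2.7.10a, StringTie 2.1.5 and DESeq2 1.38.3 and the builds mm10 and GRCm38 were used, in roles not given there. A second deposited table, named as normalized, held the same counts (0 cells differed in its 10 columns) and gave no value here.

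All genes were fitted in R 4.3.3 with edgeR 4.0.16 (filterByExpr, TMM, quasi-likelihood F-test, two-sided, Benjamini-Hochberg adjustment over all genes, threshold 0.05). The DA against nDA comparison used the 8 food-trained libraries, and stages were contrasts in a fit of the 11 DA libraries. An SE is the log2 fold change divided by the square root of F. CPM uses the TMM factors of all 15 libraries. Each column carries the short name given in 1 sample's description, and titles give the groups. Samples are pools of 2 mice. Ratios of members (pseudocount 0.5) were compared by exact permutation tests in Python 3.11.15. Alternatives were DESeq2 1.42.0, limma 3.58.1 (voom with quality weights), other scaling and filters, a GC correction from transcripts of GENCODE M21, a replicate block, and each replicate left out. The scripts were tested on simulated data. Text names all members, pathway genes past the threshold or else the 2 with the lowest p, and the 2 genes nearest in pattern. Members and lists were chosen with earlier results of these data known.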

Additional observations from a re-analysis of the deposited data

Results flagged for a closer look

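Over the 26 sets of 4 libraries tested for a value far from the rest, 2 stood out, and chance flags about 1 in 20 such sets. Uhrf1 stood at 6.14 CPM in abstinence replicate 1 and at 0 in the other 3 abstinence libraries. Tet2 stood at 64.4 CPM in food-trained DA replicate 2, the lowest of 4, with the next at 90.2 CPM. Without that library the log2 fold change of Tet2 between DA and nDA nuclei was -0.69 (edgeR adjusted p = 0.0230).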

How the results depend on the processing

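The number of members called between DA and nDA nuclei, 2, fell to 0 with the replicate number as a block, to 1 with the replicate block and GC correction together, and to 0 with the added term for the 4 libraries of low GC slope. It ran from 0 (without nDA replicate 1 or 3) to 3 when a library was left out. The third was Dnmt1 without FT DA replicate 1, and Uhrf1, then above the filter, without nDA replicate 4. Uhrf1 had 0 counts in all 4 FT DA libraries and passed the filter through the nDA libraries alone, so no conclusion is drawn from its call. Dnmt1 also passed with DESeq2 and with at least 10 counts in every library (adjusted p = 0.0190 and 0.0493). Whether a number marks shared mice is not given in the sources used here. Same-numbered DA and nDA libraries correlated at 0.035 to 0.087 in their deviations from the group means, and libraries of different number at -0.06 to 0.061. DA replicate 4 correlated more with nDA replicate 1, at 0.061, than with its own number. These low values do not settle whether the numbers pair the libraries, so the fits with and without the block are both given. At maintenance against food training 0 members became 1 (Mbd1) with DESeq2. In the other 2 stage comparisons the count was 0 in every alternative run. Over all genes the count between populations went from 2534 to 1643 with at least 10 counts in every library, 3883 with DESeq2, 4266 with limma-voom, 775 with the block, 874 with block and GC correction and 965 with the added term. At maintenance against food training it went from 25 to 109, 894, 9, 0, 0 and 0 in that order, and to 12 with GC correction, and ran from 5 to 78 with a library left out. At abstinence it went from 0 to 125 with DESeq2 against food training. Against maintenance it went from 34 to 69, 732, 30, 2, 1 and 1, and to 15 with GC correction and with all 15 libraries, and ran from 6 to 73 with a library left out. Between populations more called genes were lower than higher in DA nuclei in the main fit (1815 against 719), with DESeq2 (2378 against 1505) and with limma-voom (3374 against 892). Fewer were lower with at least 10 counts in every library (727 against 916) and with the block (362 against 413). The same held with block and GC correction (392 against 482) and with the added term (397 against 568).

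The log2 fold changes of Dnmt3a, Tet2, Dnmt1, Tet1, Tet3 and Mbd1 between populations kept their sign in every alternative run. Every sign that turned is of an uncalled value, and the cause was not tested. Between populations Dnmt3b (0.33) became -3.64 with limma-voom, -3.06 with the replicate block and -2.97 with block and GC correction. At maintenance limma-voom gave 0.20 for Dnmt3b and 0.12 for Tet1, the block gave 0.056 for Tet1, and the added term gave 0.33 for Tet3. At abstinence against food training Dnmt3a (0.0084) was -0.035 with DESeq2's size factors and -0.035 with its test, -0.023 with at least 10 counts in every library, -0.011 with limma-voom, -0.037 with GC correction and -0.024 with block and GC correction. Tet3 (0.029) there was -0.0057 with DESeq2's size factors, -0.0056 with its test and -0.045 with limma-voom, and Dnmt3b was 1.08 with limma-voom, 1.42 with the block and 1.34 with block and GC correction. At abstinence against maintenance Tet1 was 0.012 with block and GC correction, and the added term gave -0.30 for Tet3 and 0.016 for Mbd2. Under the block the adjusted p of Dnmt3a and Tet2 between populations was 0.0597 in both, and it changed no other member's call.

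With a library left out, log2 fold changes ran from -0.48 to 0.77 for Dnmt3b and -0.53 to 0.036 for Mbd2 between populations, and -0.35 to 0.44 for Tet1 at maintenance. At abstinence against food training they ran from -0.0698 to 0.096 for Dnmt3a, -0.47 to 0.23 for Tet1, -0.25 to 0.18 for Tet3, -0.27 to 0.043 for Mbd1 and -0.017 to 0.58 for Mbd2, and against maintenance from -0.63 to 4.09 for Dnmt3b and -0.42 to 0.11 for Tet1. Differences in log2 ratio ran from -0.50 to 0.28 for Tet3/Tet2, -0.55 to 0.27 for Tet1/Tet2 and -0.27 to 0.36 for Mbd2/Mbd1 between populations (0.0051 for the last with a pseudocount of 2). For Tet1/Tet2 they ran from -0.72 to 0.10 at maintenance, -0.59 to 0.23 at abstinence against food training and -0.0123 to 0.29 against maintenance, and for Tet3/Tet2 from -0.54 to 0.23 at abstinence against food training. Mbd2/Mbd1 at maintenance against food training kept its sign throughout, from 1.78 to 2.40. Uhrf1, Dnmt3b and Dnmt1 had libraries at 0 counts. Dnmt3b was at 0 in 4 libraries, among them those of lowest and of highest total (25813697 and 59046618 counts).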
